A study of Homo sapiens with 4 samples.

Results

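The genes examined were FOS, FOSB, FOSL1 and FOSL2 of the Fos family, JUN, JUNB and JUND of the Jun family, and EGR1, 8 of the 20007 protein-coding genes in the GENCODE annotation of hg38. They were chosen by name, and each was followed through its gene body with 10 kb added on either side, here called its window. All peaks that reached into a window were taken, 43 of the 170371 in the series. Merging peaks that shared at least 1 bp between libraries gave 80551 regions, of which 19 lay in these windows and 53362 in the windows of all protein-coding genes. The libraries were made from HepG2, a human liver carcinoma cell line of wild-type genotype grown as adherent cells. Chromatin accessibility was measured by Omni-ATAC, in which a transposase inserts sequencing adapters into open chromatin, after a DNase step that removed free DNA. There were 2 control libraries from untreated cells and 2 libraries from cells given 5 µM tazemetostat in DMSO for 48 h, each from 50000 cells. The controls are labelled only as untreated, with no mention of DMSO, and no label says that the replicates were separate cultures. p-values therefore measure the spread between these libraries, which may be technical.

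Fos and Jun proteins pair through leucine zippers to form AP-1, a transcription factor that binds the TGANTCA sequence at enhancers and promoters. Jun proteins can also pair with each other, whereas Fos proteins need a partner. FOS, FOSB, JUN, JUNB and EGR1 are immediate early genes: growth factors, stress and serum switch them on within minutes, through kinases that act on factors already bound at their promoters, and the transcripts decay soon after. JUND is expressed more steadily, and FOSL1 and FOSL2 respond later. In the liver, JUN is needed for regeneration and is linked to tumour formation. Tazemetostat blocks EZH2, the enzyme of polycomb repressive complex 2 that methylates histone H3 at lysine 27, a mark of silenced genes.

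The control libraries held 17.2 and 23.8 M mapped tags and the tazemetostat libraries 19.8 and 26.6 M. The lists held between 26133 and 55313 peaks, with more peaks in both tazemetostat libraries than in both controls. Tags inside listed peaks numbered 742864 (control replicate 1), 1353842 (control replicate 2), 2283279 (tazemetostat replicate 1) and 2605603 (tazemetostat replicate 2). Control replicate 2 thus had more mapped tags but fewer tags inside peaks than tazemetostat replicate 1. Whether this difference arose in library preparation was not tested. Of 10 hepatocyte markers, 7 had a promoter peak in every library, and ALB, AFP and FGB had none in any. A peak was listed only when it stood at least 4-fold above the surrounding 10 kb of the same library, so a position with many tags in a broadly tagged stretch could go without a peak. A missing peak is therefore not a value of 0. Among the 8 genes, the fold over the local background lay between 4.00 and 6.96 with a median of 4.66, and 30 of the 43 peaks (69.8%) were below 5-fold. Of all peaks 33.9% were below 5-fold, and of all peaks at protein-coding promoters 37.8%. None of the 43 reached 8-fold, against 29.1% of all peaks. The peaks at these genes were thus listed close to the limit for calling one.

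**Figure D1:**
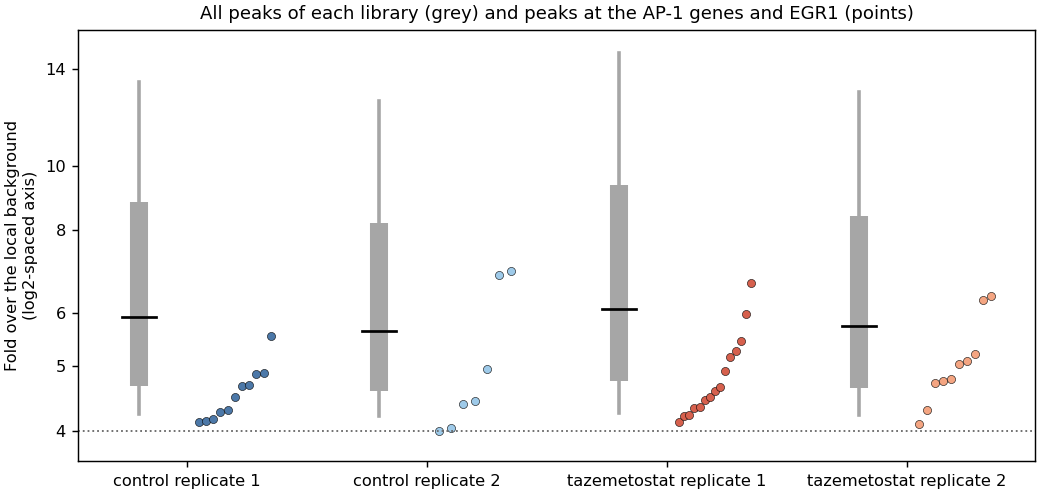
Fold over the local background (log2-spaced vertical axis) by library: the grey bar spans the middle 50% of all peaks, the thin line the 10th to 90th percentile, the black tick is the median, points are the peaks in the 8 windows, spread sideways in order of value, and the dotted line is the 4-fold minimum. The points sit between 4.00 and 6.96, and 38 of the 43 lie below the median of their library.

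Promoter sequences are shown for 4 genes whose starts differed in the peaks found there: JUN with a peak in every library, EGR1 with peaks in the controls, JUND with a peak in 1 library and FOS with none. Each line gives the 250 bases upstream of the start, 5′ to 3′ on the gene's strand, from the RefSeq promoter table of GRCh38.p14, in which 7 of the 8 genes were found. The stretches are chr1:58784048-58784297 on the minus strand, chr5:138465229-138465478 on the plus strand, chr19:18281623-18281872 on the minus strand and chr14:75278578-75278827 on the plus strand. Capitals mark every match to the motifs described after them.
JUN: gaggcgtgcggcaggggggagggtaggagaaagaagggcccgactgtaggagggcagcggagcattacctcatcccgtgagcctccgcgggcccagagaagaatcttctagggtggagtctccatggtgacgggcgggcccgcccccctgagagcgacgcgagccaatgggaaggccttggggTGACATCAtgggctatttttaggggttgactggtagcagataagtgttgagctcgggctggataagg
EGR1: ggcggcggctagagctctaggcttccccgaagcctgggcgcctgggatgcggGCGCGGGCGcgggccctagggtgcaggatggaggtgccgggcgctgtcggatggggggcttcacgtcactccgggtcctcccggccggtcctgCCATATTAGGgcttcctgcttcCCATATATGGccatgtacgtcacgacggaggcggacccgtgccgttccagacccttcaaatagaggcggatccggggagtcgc
JUND: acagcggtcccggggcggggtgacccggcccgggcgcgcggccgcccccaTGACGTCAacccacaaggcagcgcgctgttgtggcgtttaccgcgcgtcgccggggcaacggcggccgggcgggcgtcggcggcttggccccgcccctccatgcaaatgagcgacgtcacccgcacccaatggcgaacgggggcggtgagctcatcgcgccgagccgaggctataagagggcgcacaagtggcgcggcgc
FOS: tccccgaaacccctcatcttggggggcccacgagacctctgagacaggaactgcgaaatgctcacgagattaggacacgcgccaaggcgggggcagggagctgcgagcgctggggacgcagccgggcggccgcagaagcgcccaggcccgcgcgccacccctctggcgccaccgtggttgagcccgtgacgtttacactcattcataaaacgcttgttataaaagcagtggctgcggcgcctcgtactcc

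The capitals in JUN are TGACATCA, the AP-1-type site of the JUN promoter, which lay 67 to 60 bases before the start. Across the 35116 promoters of the table, taken as 300 bases from 250 before to 50 after the start, 2.61% held TGACATCA on either strand. In EGR1 the capitals mark a pair of CArG boxes, the element bound by serum response factor, at 105 to 96 and 83 to 74 bases before the start, and a GCGNGGGCG site of the EGR family at 198 to 190 bases. CArG boxes occurred in 1.29% and GCGNGGGCG in 9.43% of the promoters. JUND held TGACGTCA, the cAMP response element, 200 to 193 bases before its start, found in 1.85% of promoters. FOS held none of the sequences searched in these bases, and neither did FOSB or JUNB in their 300. FOSL2 held TGACTCA, a full AP-1 site, 4 to 10 bases after the start within its peak, and TGANTCA was present in 7.71% of promoters. CCGGAAGT, the site of ETS factors, matched none of the 7 promoters and 4.14% of all promoters. Both strands were searched, no motif match overlapped another in these promoters, and a match describes letters only.

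At the transcription starts, 2 of the 8 genes (25%) had a peak within 1 kb in every library, JUN and FOSL2, and 5 (62.5%) had one in at least 1 library. Over all protein-coding genes these shares were 32.4% (6492 genes) and 59.1%. No peak lay within 1 kb of the canonical start of FOS, FOSB or JUNB in any library. The values that follow are normalised tag counts, the tags in a peak per 10 M mapped tags of its library.

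**Figure D2:**
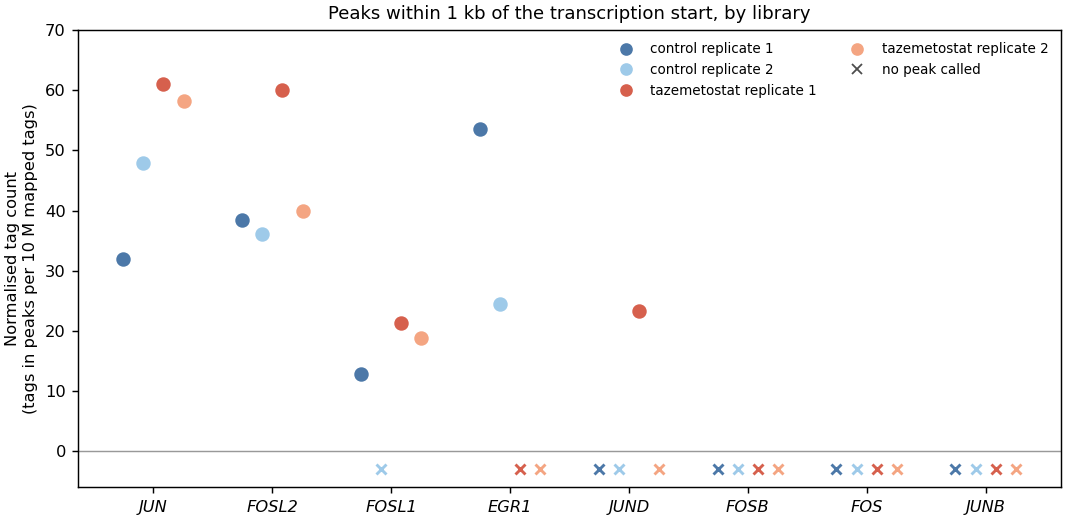
Normalised tag count of the peaks within 1 kb of each start (vertical axis) for the 8 genes and 4 libraries, with a cross below the axis where no peak was called; values of adjoining peaks in a library are summed. JUN and FOSL2 carry points from all 4 libraries, EGR1 from the 2 controls, JUND from tazemetostat replicate 1, and FOS, FOSB and JUNB carry crosses.

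JUN (chr1:58776845-58784048, minus strand) had 1 region in its window, over its own start at chr1:58783754-58784549, from 502 bases upstream to 293 downstream. This region was also annotated as a promoter of LINC01135. Its normalised tag count was 32 and 47.9 in control replicates 1 and 2 and 61 and 58.3 in tazemetostat replicates 1 and 2. Both tazemetostat values lay above both control values. In such bulk libraries, more cells with an open site and a site open more often per cell cannot be told apart. This was the highest promoter count of the group in 3 of the 4 libraries. The difference on the log2(count + 1) scale was 0.59 ± 0.34 (SE), 1.51-fold, with an adjusted p of 0.136 in limma over all promoters, so it did not pass the test. Without control replicate 2, the higher of the controls, it did (0.88, adjusted p = 0.0482 in limma), as did 49.6% of the promoters then tested. That fit leaves 1 control library, which is assumed to vary like the tazemetostat pair. The median difference over all 6492 promoters was 0.75, and 30.0% of promoters lay below JUN. The peak had nearly the same borders in every library, with at least 653 bp shared by any 2 of them, and the fold over the local background was 5.55 and 6.85 in the controls and 4.22 and 4.72 under tazemetostat. That fold thus ran opposite to the tag count.

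FOSL2 (chr2:28392448-28417317, plus strand) encodes FRA2, a Fos protein without the strong activation domain of FOS. Its promoter region at chr2:28392549-28393120 had 38.4 and 36.1 in the controls and 60 and 39.9 under tazemetostat. Tazemetostat replicate 1 stood apart from the other 3 libraries, and without it the difference was 0.10. With all libraries it was 0.39 ± 0.34 (SE), 1.31-fold, with an adjusted p of 0.301 in limma, and 11.2% of promoters lay below it. Single-library peaks were listed beyond the end of the gene, 27285 to 27585 bases from the start with 9.89 in control replicate 1 and 27928 to 28305 bases with 11.3 in tazemetostat replicate 2.

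Neither of the 2 tested promoters was called in limma, higher or lower, and 0 passed at an unadjusted p of 0.05 or in edgeR or DESeq2, where limma gave 29.1% of all tested promoters as higher and 0% as lower. Scaling decided the sign: the differences of JUN and FOSL2 were positive per mapped tag and negative, at -0.18 and -0.39, when each library was centred on its own median, since the median of all promoters exceeded both. Expressed per kilobase of peak, JUN was 46.2 and 66.8 in the controls and 82.1 and 82.6 under tazemetostat. FOSL2 was 67.3 and 68.1 against 113 and 86.9 on that scale. Both then passed in limma with differences of 0.56 and 0.54 (adjusted p = 0.0318 and 0.0366), where 33.7% of all promoters were called higher. The SE was 0.21 for both in that fit, a spread pooled over promoters and not that of either gene. Per kilobase of peak, 0 of the 5 tested windows and 2 of the 4 tested regions were called higher, against 8.58% of all windows and 32.9% of all regions.

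**Figure D3:**
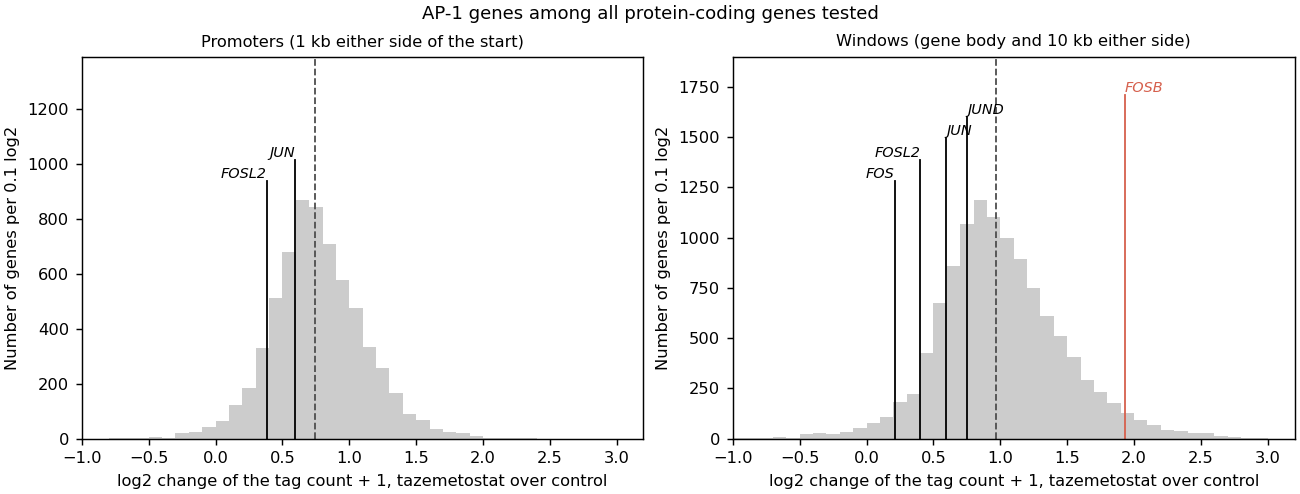
Differences of log2(normalised tag count + 1), tazemetostat minus control (horizontal axis), for all promoters and all windows tested (grey bars, number of genes per 0.1), with the tested genes as vertical lines and the median of all genes dashed. FOSL2 and JUN lie left of the promoter median of 0.75, and among windows FOSB at 1.93 (red, past the threshold) is the 1 gene right of the median of 0.96 (it is at 1.16 when the region at its edge is counted whole).

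FOSL1 (chr11:65892049-65900573, minus strand) encodes FRA1, a Fos protein induced late and raised in many carcinomas. Its promoter region, chr11:65900364-65900772, had 12.8 in control replicate 1 and no peak in control replicate 2, and 21.2 and 18.8 in the tazemetostat libraries. The promoter could not be tested in the main fit because 1 library gave no value. With 0 for a missing peak, neither the promoter nor the window was called in limma (2.50 and 3.68, adjusted p = 0.341 and 0.191). Without control replicate 2, which leaves 1 control library, the differences were 0.60 for the promoter and 1.79 for the window. A second region, chr11:65903096-65903552, 3164 to 2708 bases upstream of the start and intergenic, was called in both tazemetostat libraries (22.7 and 14.7) and in neither control. It was the only one of the 19 regions with that pattern (5.26%), whereas 13.3% of regions in all protein-coding windows had it. Another region was called in tazemetostat replicate 1 alone (21.2) at the promoter of FIBP, 11634 to 11934 bases from the FOSL1 start. In all, the FOSL1 window held 1 and 0 control peaks against 3 and 2 under tazemetostat. A two-sided exact permutation test of the number of listed peaks gave p = 0.33, which is as low as it can go with 2 libraries in each group. The summed counts in the window were 12.8 in control replicate 1 and 65.1 and 33.5 in the tazemetostat libraries, with no value for control replicate 2.

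FOS (chr14:75278826-75282230, plus strand), the founding member, had no peak over its body or start. Upstream, 1807 to 1385 bases before the start at chr14:75277021-75277443, a peak of 14 and 14.3 was called in the controls and one of 27.2 in tazemetostat replicate 1, with none in tazemetostat replicate 2. That intergenic region held TGATGTCA, the reverse complement of the TGACATCA marked in JUN, within its central 300 bases, as did 1.41% of all 80537 regions searched. Downstream, at 7536 to 7973 bases, control replicate 1 had 8.73 and tazemetostat replicate 2 had 16.2. Of the 4 libraries, control replicate 1 alone had both flanking regions. Summed over the window, FOS had 22.7 and 14.3 in the controls and 27.2 and 16.2 under tazemetostat, values that overlapped between the groups. The difference was 0.21 ± 0.40 (SE; adjusted p = 0.631, limma over all windows) and turned negative under median centring (-0.80), with 3.40% of windows below it.

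FOSB (chr19:45467995-45475179, plus strand) lay beside ERCC1, a DNA repair gene, and its window ended just short of RTN2. Inside the gene, 1160 to 2019 bases from the canonical start, a control replicate 2 peak of 16.4 was merged with tazemetostat peaks of 30.2 (replicate 1) and 22.2 (replicate 2). Control replicate 1 had none. This region was annotated as the promoter of another FOSB transcript. The tazemetostat peaks shared 68 bp, and the peaks of control replicate 2 and tazemetostat replicate 2 shared 0 bp, so the merged region did not mark a single site. The region at a promoter of ERCC1, chr19:45478452-45479265, lay more than 1 kb from the canonical start of ERCC1. It was called in all libraries with 8.73 and 22.7 in the controls and 38.8 and 16.2 under tazemetostat. It held TGAATCA and TGATTCA, which match TGANTCA with A or T at the middle base. The region centred in an exon of RTN2, chr19:45485155-45485787, had 9.31 and 19.3 against 20.2 and 23.3. Its difference was 0.65 ± 0.33 (SE; adjusted p = 0.0989, limma over all regions), and it held CCGGAAGT. Without control replicate 2, with the spread again taken from the tazemetostat pair, that difference was 1.14 and passed (adjusted p = 0.00492), as did 49.5% of all regions.

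Summed over the window, FOSB had 8.73 and 39.1 in the controls and 89.2 and 61.7 under tazemetostat. The groups did not overlap, and the difference of 1.93 ± 0.59 (SE), 3.81-fold, passed in limma (adjusted p = 0.0374), with 96.3% of windows below it. It was the only one of the 5 tested windows called higher, where 39.5% of all tested windows were called higher and 0.0262% lower. The call rested on the window's edge: the tazemetostat peaks in RTN2 reached into the window and the control peaks at the same place began just outside it. When all peaks of a region that touched the window were counted, an alternative chosen after seeing the data, the difference fell to 1.16 (adjusted p = 0.0801), with 40.2% of windows called higher. It was also not called without control replicate 1 (0.91, adjusted p = 0.0764), without tazemetostat replicate 1 (1.67, adjusted p = 0.288) or without tazemetostat replicate 2 (2.19, adjusted p = 0.144), while without control replicate 2 it was 2.95 and called. Without control replicate 1, 30.3% of all windows were called higher, and leaving out tazemetostat replicate 1 or replicate 2 gave 0%.

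JUNB (chr19:12791486-12793315, plus strand), a Jun protein that can restrain JUN, had no peak at its start or body. Its window held 1 peak in all, 13.4 in control replicate 1, at the shared promoter of PRDX2 and THSD8 10304 to 10604 bases away. The other 3 libraries listed none, the fewest peaks of the 8 windows.

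JUND (chr19:18279694-18281622, minus strand) had a single promoter peak, 23.2 in tazemetostat replicate 1, at chr19:18281698-18281998, 376 to 76 bases before the start. These 300 bases cover the TGACGTCA printed in capitals and part of the promoter of MIR3188, a microRNA gene, and 79.7% of them were G or C, more than in 99.2% of all regions. The region that recurred was at the promoter of the neighbour IQCN, chr19:18274772-18275271, 6351 to 6850 bases downstream of the JUND start. It had 16.9 and 23.9 in the controls and 29.2 and 22.6 under tazemetostat, overlapping values with a difference of 0.34 ± 0.31 (SE; adjusted p = 0.325, limma over all regions). For the whole window the counts were 16.9 and 23.9 against 52.4 and 22.6, and the difference of 0.75 ± 0.45 (SE; adjusted p = 0.154) followed tazemetostat replicate 1: it was 0.16 without that library and 1.34 without replicate 2. Without control replicate 2, with the spread taken from the tazemetostat pair, it passed in limma (0.99, adjusted p = 0.0417), as did 62.8% of all windows.

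EGR1 (chr5:138465479-138469303, plus strand), a zinc finger factor that shares its upstream kinases with FOS, was the 1 gene of the 8 with peaks at the start in the controls alone. Its promoter region spanned chr5:138464705-138465519, from 774 bases upstream to 40 downstream, and was also annotated as a promoter of ENSG00000289267. Control replicate 1 had a pair of peaks there, of 27.9 and 25.6, and control replicate 2 had 1 of 24.4. The control peaks were not at the same place: that of replicate 2 shared 84 bp and 105 bp with those of replicate 1, and with an overlap of 50% required the region was no longer one called in both controls. It was 1 of the 19 regions called in both controls and no tazemetostat library (5.26%), a pattern of 0.401% of regions in all protein-coding windows. The merged region held 5 CArG boxes and 3 GCGNGGGCG sites, 2 of them overlapping, and the CArG pair and 1 of the sites are those printed in capitals. Its central 300 bases held 3 CArG boxes and 0 GCGNGGGCG sites. These were found in the central 300 bases of 1.28% and 2.78% of all regions.

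Tazemetostat replicate 1 had 3 peaks elsewhere in the EGR1 window. They lay 1454 to 1154 bases upstream of the start (29.7), 4328 to 5132 bases downstream of it (99.8, the highest count of any peak in the 8 windows) and 10824 to 11362 bases downstream (23.2). The upstream peak was centred in an exon of ENSG00000289267. Tazemetostat replicate 2 had no peak in the window. Summed over the window, the counts were 53.5 and 24.4 in the controls and 152.7 in tazemetostat replicate 1. When promoters with a peak in at least 1 library were tested with 0 for a missing peak, EGR1 was called lower in limma (adjusted p = 0.0196), as were 0.211% of promoters. That fit takes missing peaks as zeros.

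The local background around EGR1, against which a peak was judged, was high. For peaks that had not been stitched from several, the tags divided by the listed fold give the local background, and for the 2 such control peaks at the EGR1 promoter it was 3.49 and 4.03 times the genome-wide expectation of the library. At the upstream peak of tazemetostat replicate 1 it was 4.45 times, above 99.6% of the 300 bp peaks of that library, and the medians of the 4 libraries were 0.80 to 1.04. At that background a 300 bp peak needed 53.0 tags, a normalised count of 26.7, to reach 4-fold. The 300 bp control peaks at the promoter counted 25.6 in control replicate 1, where 20.9 was needed, and 24.4 in control replicate 2, where 24.2 was needed. Whether the missing promoter peak of tazemetostat replicate 1 reflects this background was not tested, and tazemetostat replicate 2 gave no background value at EGR1.

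**Figure D4:**
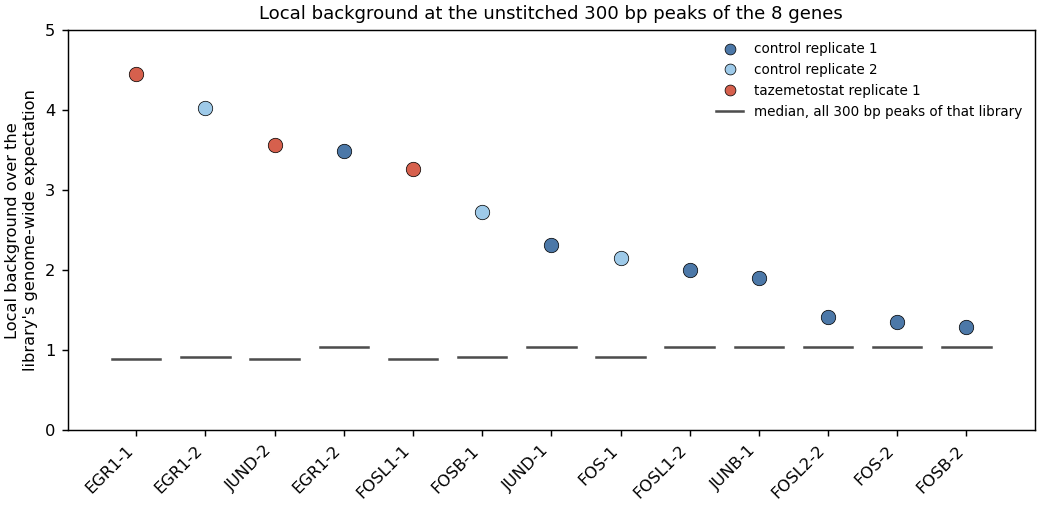
Local background of the unstitched 300 bp peaks in the 8 windows, divided by the genome-wide expectation of the library (vertical axis), with regions numbered along each gene's chromosome and coloured by library; the short line is the median of all 300 bp peaks of that library. The EGR1 peaks reach 3.49 to 4.45, and all 13 points lie above their line.

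Over the 13 unstitched peaks in the 8 windows it ranged from 1.30 to 4.45 times the expectation with a median of 2.31, and 10 of the 13 were above 90% of the peaks of their library. The JUND promoter peak stood on 3.56 times, the FIBP promoter peak in the FOSL1 window on 3.27 times and the FOSB peak of control replicate 2 on 2.73 times. The lowest values, 1.30 to 1.41, were at the ERCC1 promoter, the region downstream of FOS and the region beyond the end of FOSL2, each in control replicate 1.

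Across the 8 windows, 5 of the 19 regions (26.3%) were called in all libraries, against 23.7% of regions in all protein-coding windows. They were the promoters of JUN and FOSL2, the promoters of ERCC1 and IQCN and the exon of RTN2, so 3 of the 5 lay at neighbouring genes. Of these, 4 had exactly 1 peak per library and were tested, and 0 were called higher or lower in limma, edgeR or DESeq2 and 0 passed at an unadjusted p of 0.05 in limma, where 42.7% of such regions in the series were called higher and 0.247% lower. The other 12 regions were called in 1 to 3 libraries in mixed patterns. The control libraries had 11 and 7 peaks there and the tazemetostat libraries 15 and 10, or 9 ± 2.83 against 12.5 ± 3.54 (SD, n = 2 each). The covered length was 4147 and 3362 bp against 7051 and 4366 bp. Both tazemetostat libraries had the greater length, whereas the number of peaks overlapped between the groups. Per 10000 peaks of the library, the 8 windows held 4.21 and 2.01 in the control libraries, against 2.71 and 1.85 in those treated.

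**Figure D5:**
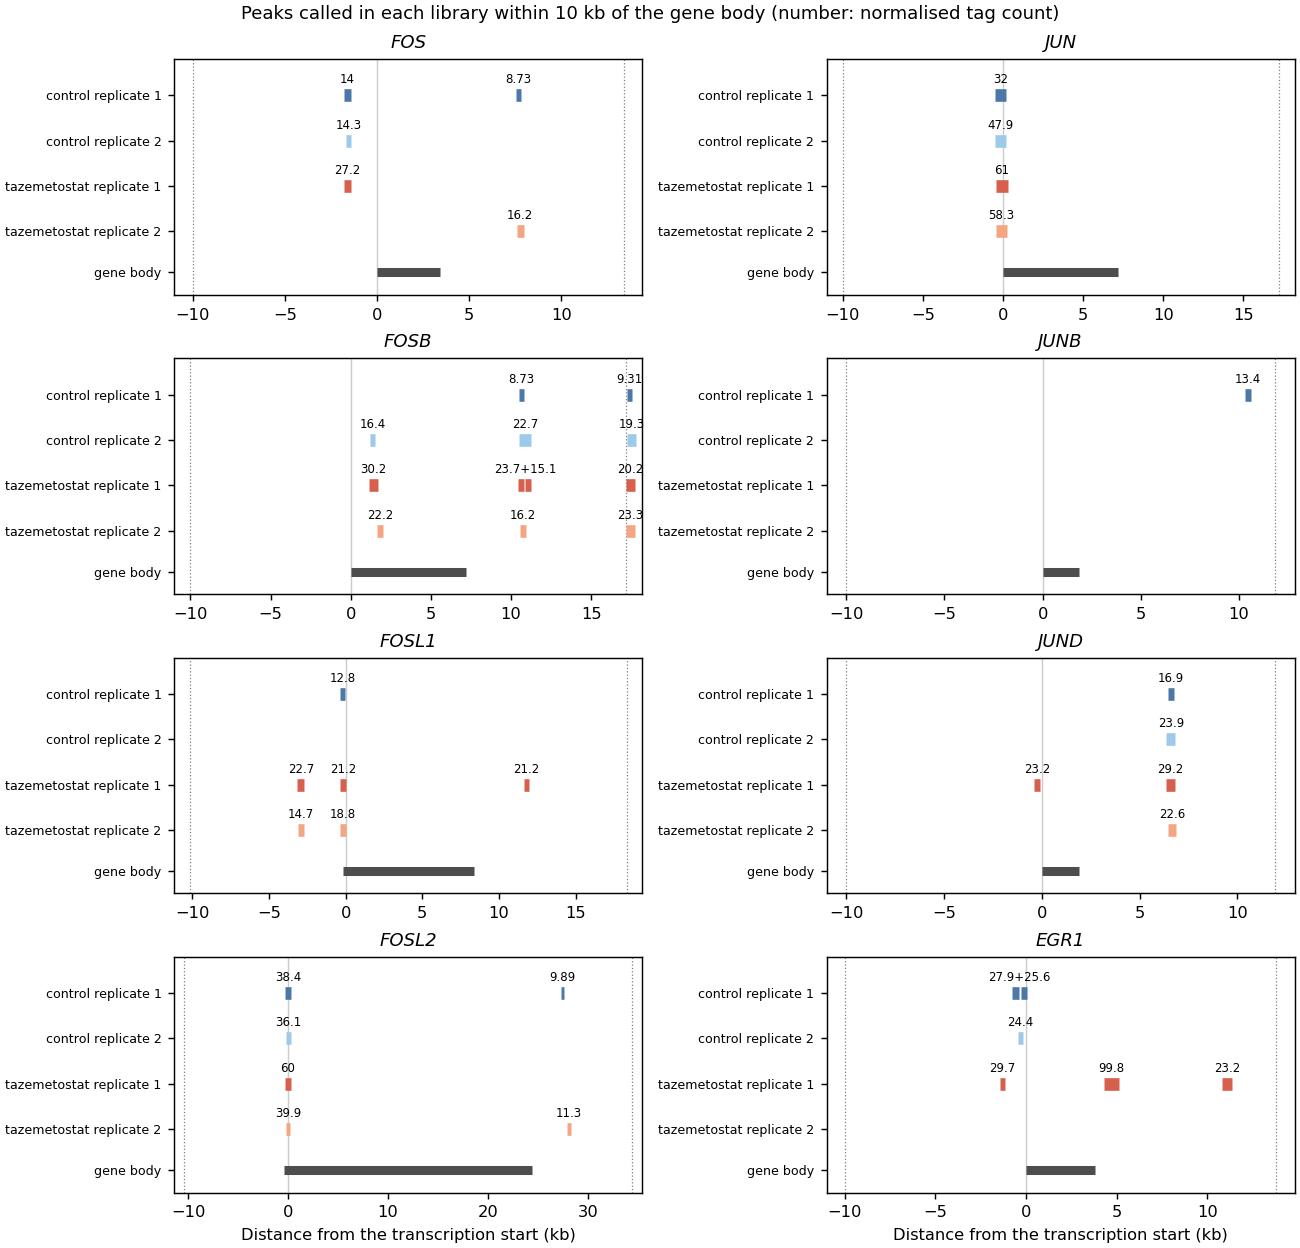
Peaks in each library (coloured blocks, with the normalised tag count above, joined by + where a region held 2 peaks in a library) against the distance from the transcription start in kb in the direction of the gene (horizontal axis), with the gene body in grey and the window as dotted lines. JUN and FOSL2 show a peak at the start in all 4 libraries, the EGR1 peaks of tazemetostat replicate 1 lie away from the start, and the control peaks of FOSB at 17 kb lie just past the dotted line.

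Letters of the central 300 bases were compared for all 19 regions and the 80537 regions on the primary assembly. TGANTCA was present in 3 of the 19 (the FOSL2, ERCC1 and IQCN promoters) and in 11.3% of all regions. The FOSL1 promoter region held TGACTCA outside its central 300 bases. TGACGTCA was present in 1 and in 0.536% of all regions, TGACATCA in 2 and in 1.41%, and CCGGAAGT in 2 and in 1.43%. CArG boxes were present in 1 and in 1.28%, and GCGNGGGCG in 0 and in 2.78%. The median region was 52.3% G or C, and the central parts of the 19 ranged from 44.7% at the ERCC1 promoter to 79.7% at JUND.

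Lists of AP-1 partners, other immediate early genes and upstream kinases were read from the same promoter test. Of 10 partners that can pair with Fos or Jun proteins, 5 had a promoter peak in every library and 1 rose: BATF2, a BATF family protein, had 14 and 18.1 in the controls and 36.3 and 32.8 under tazemetostat (difference 1.07, adjusted p = 0.0313 in limma). Of 20 other immediate early genes 6 were tested and 2 rose. CCN2, a matricellular growth factor, had 22.7 and 25.2 against 61.4 and 39.5 (1.01, adjusted p = 0.0388 in limma). EGR2, a close relative of EGR1, had 15.7 and 28.6 against 53.4 and 35.4 (1.00, adjusted p = 0.0471 in limma). Of 13 kinases and SRF cofactors upstream of these genes 8 were tested and 1 rose, MAP2K1, the kinase that activates ERK, with 15.1 and 15.1 against 41.3 and 30.1 (1.17, adjusted p = 0.0254 in limma).

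Every tested gene in these lists had a positive difference per mapped tag, as had 98.4% of all promoters, and 0 were called lower. The medians of the 3 lists were 0.77, 0.73 and 0.65 beside 0.75 for all promoters and a called share of 29.1%. BATF2, CCN2, EGR2 and MAP2K1 stayed positive under median centring, edgeR with TMM and DESeq2, at 0.22 to 0.47, but none was called there (adjusted p from 0.773 to 1.00). ATF3, a stress-induced partner counted in the partner and the immediate early list, had 29.7 and 20.6 against 43.8 and 42.2 and missed the threshold (0.77, adjusted p = 0.0723 in limma).

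The promoters most like those of JUN and FOSL2 in their 4 values, by Euclidean distance of log2(count + 1) among 6491 others, were SLC35B4 and CORO1C. SLC35B4, a nucleotide sugar transporter, had 32, 46.2, 62 and 58.3 in control replicates 1 and 2 and tazemetostat replicates 1 and 2, at a distance of 0.056 from JUN. CORO1C, an actin-binding protein, had 37.8, 37.4, 58 and 41.4 in the same order, at a distance of 0.089 from FOSL2.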

How the data were processed

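According to the submitters' notes and methods, Trim Galore 0.6.6 and Bowtie2 2.3.5.1 were used for trimming and for alignment to hg38. The authors called peaks library by library with HOMER 4.11.1, as stitched 300 bp peaks with a fold of at least 4 and a Poisson p-value of 0.0001 over the surrounding 10 kb. The headers state a false discovery rate of 0.001 (0.05 in the methods). Per the file headers, at most 1 tag per bp was counted, and the fragment length was 200 bp in the controls and 144 bp under tazemetostat, a setting that cannot be told apart from the treatment. As deposited, the normalised tag counts are signal values, in tags per 10 M mapped tags. The deposited score, whose meaning after stitching is not stated, and the clonal ratio were not used. The deposited fold is a ratio to the local background. The deposited p-value served only to check the local background: in 100% of unstitched peaks it was recovered within 0.3 on the log10 scale. Stitched peaks were left out there. The labels mention no molecular identifiers.

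Counts from all peaks overlapping a promoter (1 kb either side of the GENCODE 44 canonical start), a window (gene body and 10 kb either side) or a merged region (exactly 1 peak per library) were summed per library. Features with a peak in every library were compared with limma 3.58.1 after log2 transformation with a pseudocount of 1, which makes changes of small counts look smaller, with p-values adjusted by Benjamini-Hochberg over all features of a kind and a threshold of 0.05. Alternatives were a replicate block, median centring, a pseudocount of 5, counts per kilobase of peak, edgeR 4.0.16 and DESeq2 1.42.0 in R 4.3.3 on whole tags recovered from the signal (100% within 0.25 of a whole number), peaks of at least 8-fold, 26133 peaks per library, missing peaks as 0, 250 bp promoters, gene bodies alone, an overlap of 50% and leaving out each library. With a replicate block, per kilobase of peak or without control replicate 2, the tested promoters of the 8 genes shared the same SE in limma, as did their windows. The spread in those fits was thus pooled over features. The code was tested on simulated data. Promoter sequences were taken from the RefSeq table of GRCh38.p14. All 8 genes and every region are described, with up to 3 called genes per list. The genes and lists were chosen with earlier results of these data known.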

Additional observations from a re-analysis of the deposited data

How the results depend on the processing

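Only peaks at least 4-fold above their local background were listed, and with 2 libraries per group no exact test of a single value could pass. Deviations of same-numbered libraries from their group means correlated at 0.0266 over 6492 promoters. A shift common to all promoters does not enter that value, so it cannot show whether same-numbered libraries were prepared together. With a replicate block 0 promoters, 1 window and 0 regions of the 8 genes were called higher, as without it, and over all promoters the count fell from 1888 to 1038. Leaving out libraries gave 0 to 1 promoters, 0 to 3 windows and 0 to 2 regions called higher, with the upper ends without control replicate 2, where 49.6% of all promoters, 62.8% of windows and 49.5% of regions were called higher. It gave 2 to 6 regions called under tazemetostat alone (10% to 33.3%), against 17.1% to 35.1% of regions in all protein-coding windows. In the controls alone it gave 1 to 4 (5.56% to 20%), against 0.906% to 6.74%. When a library is left out, the remaining library of its group is enough for that pattern. Of the 117 alternatives to a count or total, 89 kept it within 1.5 times or within the spread between libraries. That tally is no measure of robustness. Many of the 117 were counts called lower that stayed at 0, where 0% to 0.247% of all features were called lower in the main fits. The spread came from 2 libraries per group: covered length differed by 1954 bp, and 611.5 and 3296.5 bp counted as kept.

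Per kilobase of peak, 2 promoters, 0 windows and 2 regions were called higher, against 33.7%, 8.58% and 32.9% of all such features. The windows called numbered 0 under median centring, edgeR with TMM, DESeq2, an equal number of peaks, missing peaks as 0 (which called 1 promoter lower), gene bodies alone and whole regions, settings that called between 0% and 40.2% of all windows higher. Gene bodies alone left 0 of 5 regions under tazemetostat alone and 2 of 5 in all libraries, against 12.9% and 25.4% of regions in all protein-coding gene bodies. A 50% overlap left 0 of 22 regions in the controls alone, against 0.346% in all protein-coding windows. At 8-fold no peak remained in the 8 windows, so the differences in peaks and length were 0 and no test could be fitted.

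Signs turned under median centring, edgeR with TMM and DESeq2, in that order: JUN promoter -0.18, -0.17 and -0.17, FOSL2 promoter -0.39, -0.35 and -0.36, FOS window -0.80, -0.78 and -0.81, JUND window -0.26, -0.12 and -0.13, the RTN2 region -0.11, -0.12 and -0.097, and the IQCN region -0.42, -0.39 and -0.38. These settings move the median of all promoters from 0.75 to between -0.026 and 0.00037. The FOS window also turned without control replicate 2 (-0.11) and without tazemetostat replicate 1 (-0.15), in a range up to 0.57 over the libraries left out. Over all promoters, edgeR with TMM called 0 (at an unadjusted p of 0.05, 273 higher and 223 lower), DESeq2 called 1 higher and 0 lower, and edgeR with the listed library sizes 2697 higher and 1 lower.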
